A study of Mus musculus with 6 samples.

Results

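The genes described here are the MHC class I and class II antigen presentation genes, followed in the RNA of mouse spinal cord microglia. A fixed list of 30 genes was looked up by Ensembl identifier in the deposited table of 55401 genes, and 30 of 30 were found and had enough counts to be tested. Of these, 20 belong to the class I machinery (heavy chains, their light chain, peptide supply and loading, and a transactivator) and 10 are class II genes (chains, invariant chain, peptide editors and a transactivator). Microglia, the macrophages that live in the brain and spinal cord, had been collected from untreated mice 7 months old with beads that bind CD11b, an integrin that other myeloid cells also carry. Non-transgenic C57BL/6 mice (NTg) were compared with heterozygous ATXN2-Q33;TDP-43 mice, called double mutants below, whose labels name a knock-in of human ATXN2 with a Q33 tract together with human TDP-43. The promoter and the expressing cells of the human TDP-43 are not given in the sources used here. Each group had 3 libraries drawn from 9 animals, each library a pool of 3 spinal cords, and the libraries carry the numbers of their titles: NTg replicates 7, 9 and 11 and double mutant replicates 8, 10 and 12.

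MHC class I molecules are built from a heavy chain and the light chain beta-2 microglobulin and show peptides from inside the cell to CD8 T cells. Those peptides are cut by the proteasome, moved into the endoplasmic reticulum by the TAP transporter, trimmed and loaded with the help of chaperones. MHC class II molecules pair an alpha with a beta chain, are guided to endosomes by the invariant chain, exchange its remnant for peptides from engulfed material with the help of H2-DM, and show them to CD4 T cells. Nearly all cells make class I, while class II is mostly a product of professional antigen presenting cells. In resting microglia class II is low, and it is widely used as a sign of activation. Both classes are induced by interferon gamma, class I through the transactivator NLRC5 and class II through CIITA.

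Promoter stretches are shown for class I heavy chains and their light chain and for class II chains and peptide editors, the genes on which the contrast of the classes turns. RefSeq promoter windows (GRCm38.p6, 250 bases before to 50 after a start site) were matched for 25 of the 30 genes. Motif letters were searched on both strands and were chosen after the promoters of these genes had been read. In the stretches below, written in the direction of the gene, capitals mark a kappaB site (GGGGATTCC, held by 0.25% of 32851 promoters), the core of an interferon-stimulated response element (AANTGAAA, 6.58%), the class I form of the X box (CTGNTGAC, 4.98%), the class II X box (AACNNATGA, 2.85%) and the CCAAT box (37.4%), which reads ATTGG on the other strand.
H2-K1 (chr17:34000323-34000470, minus strand): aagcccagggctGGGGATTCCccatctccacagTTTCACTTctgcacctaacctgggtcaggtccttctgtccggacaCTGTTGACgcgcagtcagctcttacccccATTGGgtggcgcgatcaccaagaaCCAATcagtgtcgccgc
H2-D1 (chr17:35262911-35263063, plus strand): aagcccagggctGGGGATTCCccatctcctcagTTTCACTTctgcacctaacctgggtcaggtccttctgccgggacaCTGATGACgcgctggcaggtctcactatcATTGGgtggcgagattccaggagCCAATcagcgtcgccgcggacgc
H2-Q4 (chr17:35379452-35379586, plus strand): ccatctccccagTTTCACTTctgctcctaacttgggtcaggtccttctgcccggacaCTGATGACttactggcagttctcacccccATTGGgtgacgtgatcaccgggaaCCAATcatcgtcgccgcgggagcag
B2m (chr2:122147538-122147656, plus strand): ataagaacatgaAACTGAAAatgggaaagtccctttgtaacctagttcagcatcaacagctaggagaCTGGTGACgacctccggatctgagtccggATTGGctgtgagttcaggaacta
H2-Aa (chr17:34287854-34287933, minus strand): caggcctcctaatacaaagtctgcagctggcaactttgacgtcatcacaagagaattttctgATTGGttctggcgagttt
H2-Eb1 (chr17:34305757-34305848, plus strand): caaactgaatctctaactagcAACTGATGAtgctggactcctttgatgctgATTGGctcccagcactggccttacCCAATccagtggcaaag
H2-Ob (chr17:34238795-34238874, plus strand): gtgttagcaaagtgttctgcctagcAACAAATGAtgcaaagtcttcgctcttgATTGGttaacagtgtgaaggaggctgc
H2-DMb1 (chr17:34153081-34153160, plus strand): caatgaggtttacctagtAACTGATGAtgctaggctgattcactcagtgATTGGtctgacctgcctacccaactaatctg
The kappaB letters were found in 4 of 18 class I genes with a promoter (H2-K1, H2-D1, H2-Q6 and H2-Q7), the response element in 9 and the class I X box in 8. None of these 3 motifs was found in the 7 class II genes searched. H2-Ab1, Cd74 and Ciita were left out of the search, which does not show that they lack a promoter window or these motifs. The class II X box was found in 4 of the 7 (H2-Eb1, H2-Ob, H2-DMb1 and H2-DMb2), against 0 of the class I genes. The letters CTGATGA occur in both X box forms, in H2-D1 and H2-Q4 as in H2-Eb1 and H2-DMb1, and the letters beside them separate the forms. As the motif letters were chosen with these promoters known, the split between the classes is a description and not a test. CCAAT was found in 15 of 18 class I and 7 of 7 class II promoters. The H2-Aa window holds CCAAT alone of the motifs searched. Only the letters given above were sought, so a variant of a motif would be missed. A match describes the letters and does not show that a factor binds.

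The libraries held 12553570 to 22854628 counts. Microglial markers (13 genes) summed to 12296 to 17856 CPM (counts scaled to a common library size), which fits the label. RNA of other cells was also present. Oligodendrocyte markers (8 genes) summed to 166 to 1627 CPM, highest in NTg replicate 9. Endothelial markers summed to 98.4 to 365 CPM, astrocyte markers to 103 to 170 CPM, and T and NK cell markers to 1.86 to 5.36 CPM. CD11b-positive cells other than microglia were read by library. Monocyte markers summed to 111, 126 and 124 CPM in NTg replicates 7, 9 and 11, while double mutant replicates 8, 10 and 12 had 244, 242 and 63.1 CPM, and neutrophil markers to 644, 171 and 406 against 1683, 1090 and 56.8 CPM. Double mutant replicates 8 and 10 were thus high in both lists and replicate 12 was low. In RNA from pooled cells, fewer cells of a type and less RNA per cell cannot be told apart.

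None of the 30 antigen presentation genes differed between the genotypes beyond the spread between libraries. By edgeR's quasi-likelihood test, 0 of 30 passed a Benjamini-Hochberg adjusted p of 0.05, where 0.00% of all 16248 tested genes did, and 0 of 30 had an unadjusted p under 0.05, against 2.26% of all genes. DESeq2 called 0 of 30 beside 0.0431% of all genes, limma voom 0 of 30 beside 0.00%, and edgeR with neighbouring sample numbers as a block 0 of 30 beside 0.437%. For 0 of 30 genes did all double mutant libraries lie below all NTg libraries, which held for 3.58% of all tested genes, and for 0 of 30 did they all lie above, which held for 3.27%. The median log2 fold change, double mutant minus NTg, was -0.03 for the class I machinery (8 positive and 12 negative), -0.03 for the class II genes (5 positive and 5 negative) and 0.01 for all tested genes.

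The intervals say how large a difference these libraries leave room for. For 20 of 20 class I genes the 95% interval of the fold change lay within 1.5-fold in both directions, as it did for 85.8% of the 8310 tested genes above 10 CPM. For class II it did so for 5 of 10 genes, and it reached past 1.5-fold for H2-Aa, H2-Eb1, H2-DMb2, H2-Oa and Ciita. Below the 10 CPM of that reference set lay H2-DMb2 (4.19 CPM in the mean of NTg), Ciita (4.04 CPM) and, in class I, Psmb9 (8.29 CPM). The part of depth in these counts of genes was not tested.

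**Figure D1:**
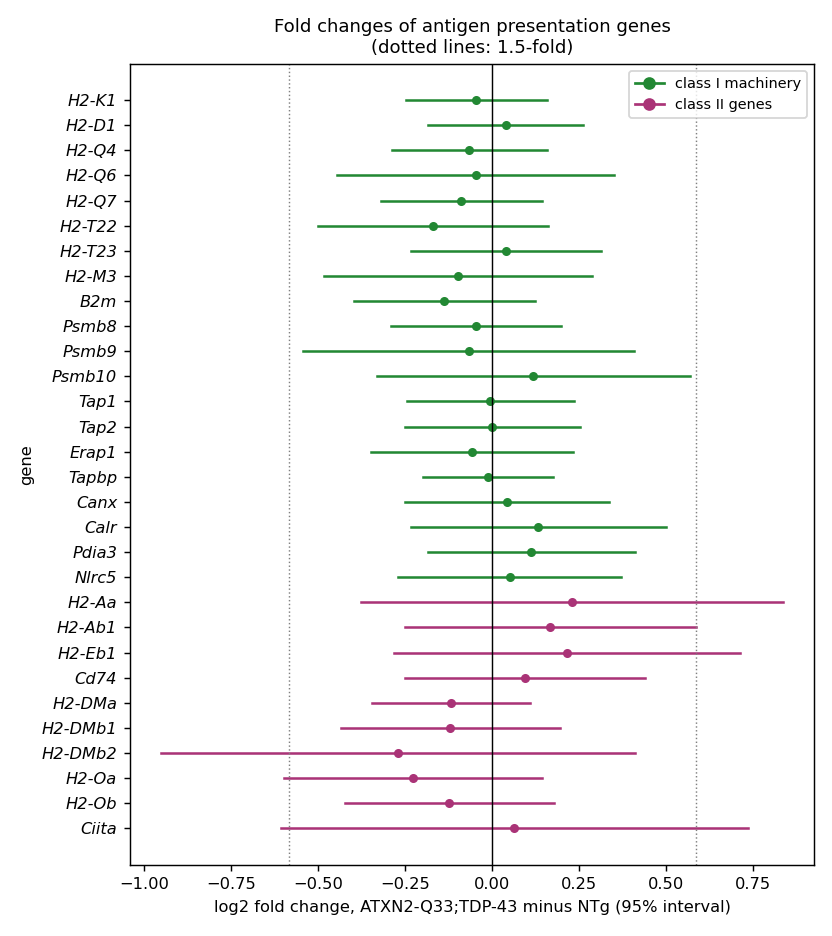
Log2 fold change of each gene (x axis, double mutant minus NTg) with its 95% interval (bars), one gene per row, class I machinery in green and class II genes in purple. Every interval crosses 0, and the class I intervals all lie inside the dotted lines at 1.5-fold.

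Levels of different genes were compared per kb of exon. In NTg they spanned 2604-fold from B2m, the class I light chain, at 1103 ± 40.1 CPM per kb, to Ciita, the class II transactivator, at 0.424 ± 0.0277 CPM per kb (SD, n = 3 each, as for all means below). After B2m came the classical class I heavy chain H2-D1 at 382 ± 20.3, the chaperone gene Calr at 302 ± 54.2 and the second classical heavy chain H2-K1 at 243 ± 11.8 CPM per kb. Calr and H2-K1 overlapped in their NTg range, whereas B2m and H2-D1 each stood clear of the next gene. Cd74, the invariant chain, was the highest class II gene at 190 ± 24.1 CPM per kb, between H2-K1 and the pair Pdia3 (126 ± 14.1) and Canx (126 ± 15.3), which did not differ beyond their spread. H2-Q6 (90.7 ± 17.3) and H2-Q4 (82.0 ± 8.44) overlapped, as did Tapbp (49.0 ± 0.372) and H2-Q7 (44.1 ± 5.16).

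The class II chains came lower in the order. H2-Ab1 stood at 29.8 ± 1.56 CPM per kb, just above the nonclassical class I gene H2-T23 at 25.0 ± 2.55, while H2-Eb1 (19.4 ± 1.67) overlapped in range with H2-DMa (19.3 ± 0.0966), Psmb8 (19.0 ± 0.818) and H2-DMb1 (18.4 ± 0.89). H2-M3 (15.7 ± 1.61), H2-Aa (13.4 ± 3.09), Tap2 (12.5 ± 1.05), Psmb10 (11.4 ± 2.15) and H2-Oa (9.98 ± 1.02) formed a further run in which each overlapped the next. Erap1 (7.71 ± 0.589), Tap1 (7.42 ± 0.116), H2-Ob (6.20 ± 0.742), H2-T22 (4.90 ± 0.215), Nlrc5 (3.60 ± 0.353), H2-DMb2 (2.40 ± 0.365) and Psmb9 (2.26 ± 0.108) were the lowest before Ciita. In all, 13 of 29 neighbouring pairs overlapped in their NTg range. The length is that of all annotated exons of a gene, so a gene with long exons that microglia do not use reads low on this scale. H2-Ea, listed as H2-Ea-ps and known to lack a working promoter in C57BL/6 mice, had 0 counts in each of the 6 libraries, and a count of 0 allows up to 0.136 to 0.242 CPM (3 counts per library).

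**Figure D2:**
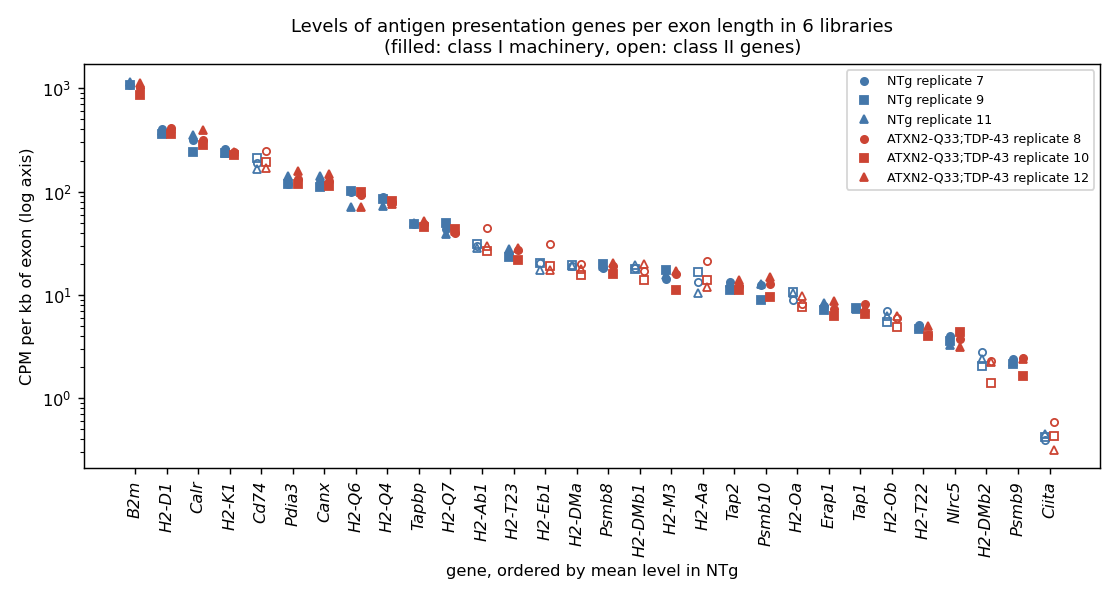
CPM per kb of exon (y axis, log scale) of the 30 genes, ordered by their NTg mean, with one point per library, NTg in blue and double mutant in red, class I machinery filled and class II open. B2m leads near 1103 and Ciita is last near 0.424, and the points of both genotypes overlap for each gene.

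The classical heavy chains and the chaperone gene Tapbp had the smallest ratios of highest to lowest library among the 30 genes. H2-K1 (ENSMUSG00000061232, mm10 chromosome 17, 33996017 to 34000347), which presents peptides to CD8 T cells, read 753, 694 and 693 CPM in NTg replicates 7, 9 and 11 while double mutant replicates 8, 10 and 12 read 707, 658 and 710.0 CPM. H2-D1 (ENSMUSG00000073411, chromosome 17, 35262730 to 35267499), the other classical heavy chain of this haplotype, read 1035, 931 and 993 CPM against 1065, 928 and 1046 CPM. In both genes the groups overlapped and double mutant replicate 10 was lowest. On the log2 scale H2-K1 differed by -0.05 (SE 0.09, 95% interval from -0.25 to 0.16). H2-D1 differed by 0.04 (SE 0.10, from -0.18 to 0.26), and the highest library exceeded the lowest 1.15-fold in each gene, where the median gene above 10 CPM differed 1.31-fold.

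B2m (ENSMUSG00000060802, chromosome 2, 122147686 to 122153083), the light chain shared by all class I molecules, read 927, 931 and 988 CPM in NTg against 868, 742 and 978 CPM in the double mutants. Replicates 8 and 10 lay below all NTg libraries and replicate 12 lay among them. The log2 difference for B2m was -0.14 with a SE of 0.12 and a 95% interval from -0.40 to 0.12 (edgeR adjusted p = 1). An exact two-sided permutation test gave p = 0.3, where 3 against 3 libraries allow no p below 0.1. Without double mutant replicate 10 the log2 difference was -0.04.

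The nonclassical heavy chains, which include ligands of NK and unconventional T cell receptors, had a median log2 fold change of -0.08 (6 genes, 1 positive and 5 negative, -0.17 to 0.04). H2-Q6, of the Qa-2 family, read 208, 212 and 148 CPM in NTg replicates 7, 9 and 11 while double mutant replicates 8, 10 and 12 read 195, 206 and 147 CPM. One library of each genotype, NTg replicate 11 and double mutant replicate 12, stood apart below the other 4. H2-Q7, its closest relative in the list, read 186, 211 and 167 CPM against 170, 185 and 176 CPM, with no such split. H2-Q4 read 229, 221 and 188 CPM in NTg against 205, 210.0 and 195 CPM in the double mutants.

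H2-T23, the Qa-1 molecule that binds the leader peptides of other class I chains, read 69.7, 66.5 and 80.6 CPM against 78.6, 63.1 and 81.4 CPM, with replicate 10 again lowest. H2-M3, which presents formylated peptides, read 20.5, 25.0 and 22.2 CPM against 22.8, 16.1 and 24.3 CPM. H2-T22, a ligand of gamma delta T cells, had the most negative value of the class I genes at -0.17 on the log2 scale (SE 0.15, 95% interval from -0.50 to 0.16), from 17.5, 16.01 and 16.7 CPM in NTg against 13.9, 13.6 and 17.1 CPM. These genes resemble each other in sequence. Shared 50-base stretches were sought in spliced transcripts of an annotation release earlier than the one used for the counts. The share of a gene's stretches that another gene also holds was 34.5% for H2-T22, 32% for H2-Q6, 26.4% for H2-Q7 and 21.8% for H2-Q4. It was 13.6% for H2-T23, 12.8% for H2-D1, 9.63% for H2-K1 and 0.576% for H2-M3. Reads with several alignments were not counted per the file headers, so the levels of these genes are uncertain and may be too low.

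The genes of peptide supply overlapped between the genotypes. The immunoproteasome subunits, which replace constitutive proteasome subunits under interferon, were Psmb8 at 64.3 ± 2.77 and 62.2 ± 7.92 CPM, Psmb9 at 8.29 ± 0.397 and 7.90 ± 1.67 CPM and Psmb10 at 19.4 ± 3.66 and 21.0 ± 4.54 CPM in NTg and double mutants. Double mutant replicate 10 was lowest for Psmb8 and Psmb9 and NTg replicate 9 for Psmb10. Tap1 and Tap2, the subunits of the peptide transporter, differed by -0.01 (SE 0.11, 95% interval from -0.25 to 0.24) and 0.00 (SE 0.11, from -0.25 to 0.25) on the log2 scale. Tap1 read 40.8, 41.2 and 39.9 CPM in NTg against 44.9, 35.8 and 40.9 CPM in the double mutants, which lay on both sides of the NTg values. Erap1, the aminopeptidase that trims peptides for class I, measured 56.2 ± 4.29 and 53.9 ± 8.94 CPM.

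Of the loading chaperones, Tapbp (tapasin, the bridge between TAP and the heavy chain) read 177, 177 and 179 CPM in NTg against 175, 166 and 187 CPM in the double mutants. The general chaperones of the endoplasmic reticulum varied more. Calr (calreticulin) read 904, 700.3 and 1007 CPM against 917, 819 and 1127 CPM, which is 0.13 on the log2 scale (SE 0.16, 95% interval from -0.23 to 0.50). Canx (calnexin) measured 591 ± 72.0 and 608 ± 82.7 CPM, and Pdia3, the disulfide isomerase of the loading complex, 397 ± 44.2 and 429 ± 67.2 CPM. For Calr, Canx and Pdia3 NTg replicate 9 was lowest and double mutant replicate 12 highest, and without replicate 12 the log2 fold changes of the 4 chaperones ran from -0.07 to 0.00. Nlrc5, the class I transactivator, read 33.7, 30.3 and 27.8 CPM in NTg against 32.0, 36.7 and 26.3 CPM in the double mutants, and double mutant replicate 10, lowest for 12 of the 20 class I genes, was its highest library.

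One double mutant library stood high for the class II chains. H2-Aa (ENSMUSG00000036594, chromosome 17, 34282744 to 34287823), the alpha chain of I-A, read 50.4, 62.8 and 39.4 CPM in NTg replicates 7, 9 and 11 while double mutant replicates 8, 10 and 12 read 80.1, 53.2 and 45.7 CPM. H2-Ab1 (ENSMUSG00000073421, chromosome 17, 34257689 to 34269419), its beta chain, read 76.2, 80.6 and 72.6 CPM against 113, 68.3 and 76.0 CPM. H2-Eb1 (ENSMUSG00000060586, chromosome 17, 34305867 to 34316674), the beta chain of I-E, whose alpha chain gene is H2-Ea, read 39.3, 39.7 and 33.9 CPM against 60.2, 37.3 and 33.8 CPM. In all 3 genes double mutant replicate 8 was the highest library and replicates 10 and 12 lay near or within the NTg range.

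The log2 fold changes of H2-Aa, H2-Ab1 and H2-Eb1 were 0.23 (SE 0.25, 95% interval from -0.38 to 0.84), 0.17 (SE 0.18, from -0.25 to 0.58) and 0.22 (SE 0.21, from -0.28 to 0.71), each with an edgeR adjusted p = 1. Without replicate 8 they were -0.04, -0.08 and -0.08, so the positive direction rests on that library. Cd74 (ENSMUSG00000024610), the invariant chain that blocks the groove of new class II molecules, read 321, 358 and 277 CPM in NTg against 412, 327 and 281 CPM in the double mutants. Again replicate 8 was highest and the others overlapped the NTg libraries. Cd74 differed by 0.09 on the log2 scale (SE 0.15, 95% interval from -0.25 to 0.44), and without replicate 8 by -0.065. Ciita, which drives the class II promoters, had 47 to 95 counts per library and read 3.79, 4.02 and 4.31 CPM against 5.64, 4.07 and 3.01 CPM, also highest in replicate 8.

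Markers of other cells that can make class II were read beside these values. Border macrophage markers (10 genes) summed to 131, 158 and 154 CPM in NTg against 171, 120 and 143 CPM in the double mutants, and 5 of 10, among them F13a1, Cd163 and Lyve1, were highest in replicate 8. F13a1 stood at 49.9 CPM there and at 29.9 to 37.4 CPM in the other libraries, while Mrc1, the most abundant of the list, was highest in NTg replicate 9. Dendritic cell markers (10 genes) summed to 86.9, 91.2 and 72.4 against 79.2, 80.7 and 69.4 CPM, mostly Itgax, which microglia also express. Of these 10, only Flt3 was highest in replicate 8, at 2.08 CPM against 0.727 to 1.27 CPM elsewhere, while Clec9a had 0 counts there. B cell markers (10 genes) summed to 36.4, 42.2 and 32.0 against 31.5, 32.7 and 28.4 CPM, mostly Cd22. Of these 10, 2 were highest in replicate 8, Fcmr with 4 counts and Blk with 3. The defining marker Ms4a1 had 0 counts in replicate 8 and 0 to 3 in the others. Replicate 8 was also the highest library for 5 of 8 monocyte and 8 of 10 neutrophil markers, and replicate 10 for the other 3 and 2. The part of these cells in the class II values was not tested.

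Of the 5 class II peptide editors, 1 (H2-DMa) was also highest in replicate 8, and all 5 were lowest in replicate 10. H2-DMa, a subunit of the exchange factor that removes the invariant chain remnant, read 66.3, 66.8 and 66.2 CPM in NTg against 68.0, 53.8 and 61.9 CPM in the double mutants. Its partner H2-DMb1 read 30.4, 29.8 and 32.6 against 28.7, 23.3 and 33.3 CPM. The related H2-DMb2 had 36 to 92 counts and read 4.83, 3.56 and 4.18 against 4.01, 2.44 and 3.95 CPM, and it shares 24.8% of its 50-base stretches with other genes, so H2-DMb1 and H2-DMb2 are uncertain.

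H2-Oa and H2-Ob, which form the inhibitor of H2-DM, measured 14.03 ± 1.43 and 11.99 ± 1.57 CPM, and 33.4 ± 3.99 and 30.6 ± 3.69 CPM, in NTg and double mutants. H2-Oa read 12.4, 15.1 and 14.6 CPM against 11.4, 10.8 and 13.8 CPM, a log2 difference of -0.23 with a SE of 0.16 and a 95% interval from -0.60 to 0.14 (edgeR adjusted p = 1). The editors thus had 5 of 5 negative values with a median of -0.12, while the chains, Cd74 and Ciita had 5 of 5 positive values with a median of 0.17. Leaving out replicate 8 turned the second group to 0 of 5 positive with a median of -0.08, and leaving out replicate 10 moved the editors to a median of -0.03 with 1 of 5 positive.

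**Figure D3:**
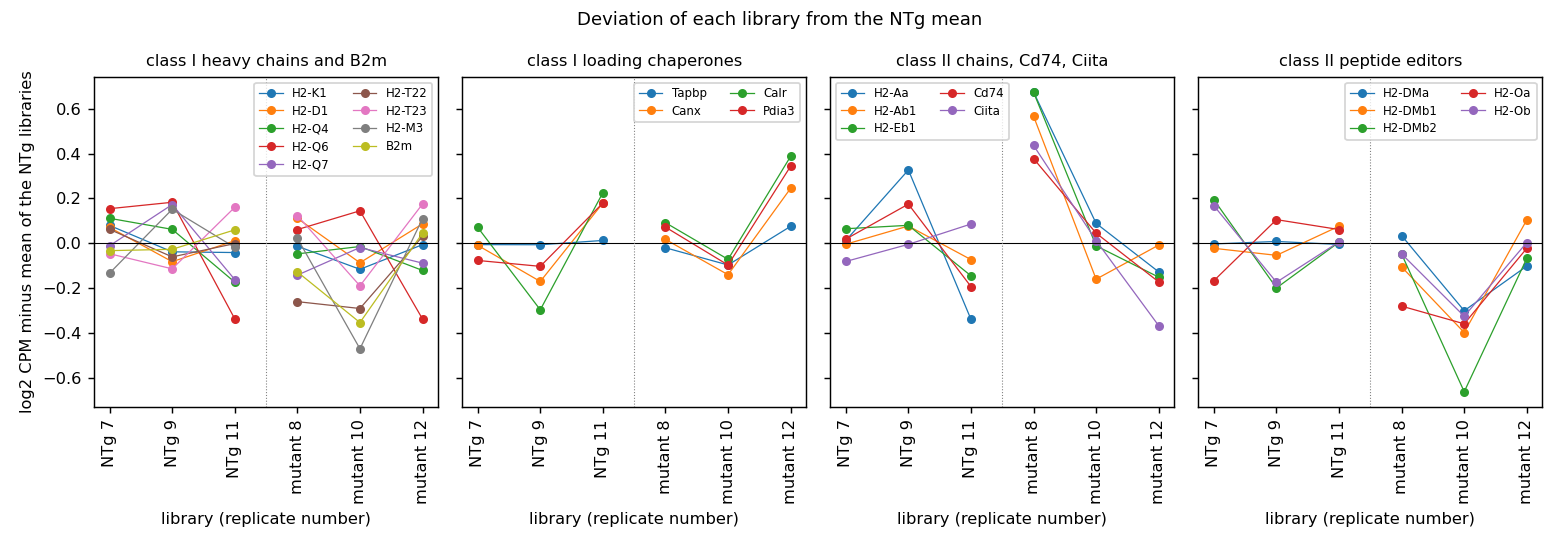
Log2 CPM of each gene in each library minus the mean of the NTg libraries (y axis), for 4 groups of genes, with lines joining the libraries of one genotype (a guide for the eye; replicates have no order). The class II chains, Cd74 and Ciita are highest in double mutant replicate 8, and the peptide editors are low in double mutant replicate 10.

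Low values in replicate 10 were seen in both classes. It was the lowest library for 18 of the 30 genes, 12 of 20 in class I and 6 of 10 in class II, and for 27.8% of the 8310 tested genes above 10 CPM. Its microglial markers also had the lowest sum, 12296 CPM, and its ependymal markers the highest, 82.5 CPM against 13.5 to 39.8 CPM elsewhere. Astrocyte markers (170 against 103 to 144 CPM) and endothelial markers (365 against 98.4 to 359 CPM) also had their highest sum in replicate 10. Oligodendrocyte markers summed to 1112 CPM in replicate 10, below only the 1627 CPM of NTg replicate 9. Their part in the low values was not tested. Replicate 8 was the highest library for 6 of 10 class II and 3 of 20 class I genes, and for 14.1% of the genes above 10 CPM.

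Within a library, the class II chains could be set against the classical class I chains. H2-Aa, H2-Ab1 and H2-Eb1 together reached 9.60%, 11.4% and 9.03% of the summed H2-K1 and H2-D1 level per kb in NTg replicates 7, 9 and 11, and 14.7%, 10.2% and 9.11% in double mutant replicates 8, 10 and 12. The means were 10.03 ± 1.26% and 11.4 ± 2.98%, and the groups overlapped, with replicate 8 alone above the NTg range. Cd74 stood at 1.94, 1.95 and 1.90 times the summed CPM of the 3 chains in NTg and at 1.62, 2.06 and 1.81 times in the double mutants, lowest in the library with the most chains. This ratio is not per kb, so it compares libraries and not the levels of these genes. For the spread between libraries, the highest library exceeded the lowest by a median of 1.31-fold for class I genes and 1.57-fold for class II genes, and by 2.03-fold for H2-Aa. The class II median includes H2-DMb2 (1.98-fold) and Ciita (1.87-fold), which had few counts, and the class I median includes Psmb9 (1.49-fold). These are descriptions of 6 libraries and the difference between the classes was not tested.

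**Figure D4:**
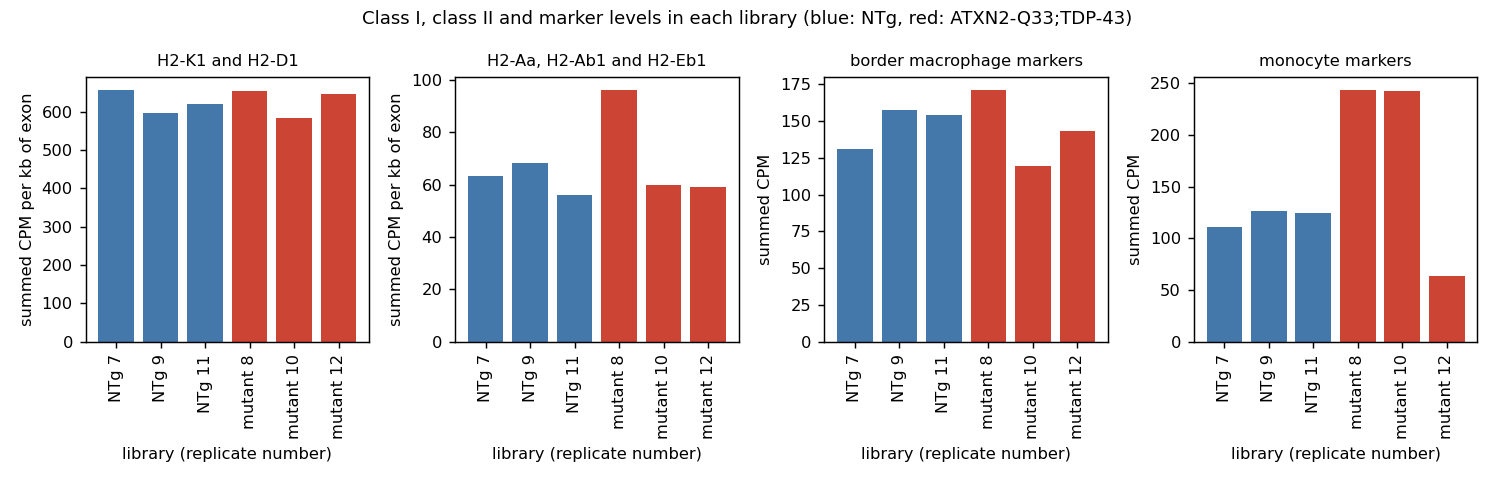
Bars give one value per library (NTg blue, double mutant red): the summed level per kb of H2-K1 and H2-D1, the summed level per kb of H2-Aa, H2-Ab1 and H2-Eb1, and the summed CPM of border macrophage and monocyte markers. The class II chains stand out in double mutant replicate 8, whereas the class I chains lie between 584 and 658 CPM per kb and the monocyte markers stand at 242 CPM in replicate 10 and 244 CPM in replicate 8.

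Genes around the pathway were read from 5 further lists. Of their 53 tested genes edgeR, DESeq2 and limma voom each called 0, beside 0.00%, 0.0431% and 0.00% of all tested genes. By the unadjusted edgeR p, 1 (Psmb6) lay under 0.05, where 2.26% of all genes did. Of the 53, the double mutant libraries all lay below the NTg libraries for 2 (Psmb6 and Mr1) and all above for 1 (Rfxap), where 3.58% and 3.27% of all genes did. The constitutive proteasome subunits and the PA28 activator had 6 of 6 negative values with a median log2 fold change of -0.10. Psmb6, the constitutive subunit that Psmb9 replaces, read 42.1, 41.8 and 44.4 CPM in NTg against 37.8, 36.4 and 36.5 CPM in the double mutants. The log2 difference for Psmb6 was -0.21 with a SE of 0.09 (edgeR adjusted p = 1). The exact permutation test (two-sided) gave p = 0.1, its minimum. Psme3, the PA28 gamma subunit, had -0.10 (SE 0.10). Of other class I and class I-like genes 11 of 17 were tested, with a median of -0.08. Mr1, which shows microbial metabolites to MAIT cells, had -0.24 (SE 0.17), and Hfe, the class I-like regulator of iron uptake, had -0.18 (SE 0.20).

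For class II processing and regulation 14 of 16 genes were tested, with a median of -0.03. Rfxap, a subunit of the RFX complex that binds the X box, read 13.5, 13.9 and 13.8 CPM in NTg against 15.6, 17.2 and 17.7 CPM in the double mutants. Rfxap differed by 0.29 on the log2 scale (SE 0.13, edgeR adjusted p = 1), and Nfyc, a subunit of the factor that binds CCAAT, by -0.23 (SE 0.14). The 15 interferon receptor and signalling genes had 10 positive and 5 negative values with a median of 0.02; Jak1, the kinase shared by both interferon receptors, had -0.11 (SE 0.09) and Ifngr2, a chain of the interferon gamma receptor, -0.12 (SE 0.10). Of the costimulation genes 7 of 8 were tested, 6 with negative values. Cd86, the ligand of CD28, had -0.13 (SE 0.13) and Cd83, which stabilises class II at the surface, -0.11 (SE 0.11).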

How the data were processed

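RNA of 6 libraries was sequenced after depletion of ribosomal RNA with a stranded kit, per the labels' protocols. The authors trimmed reads with Trim Galore 0.4.1, ran FastQC and TopHat2 and used mm10, per the submitters' processing notes. The deposited values are raw fragment counts per gene from featureCounts 1.6.1 with GENCODE vM25 and strand setting 2, per the file headers; reads with several alignments were not counted. A further 6 columns belong to other samples and were not used.

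Symbols came from an annotation of the same assembly by Ensembl identifier (55141 of 55401 genes matched, 260 did not). Genes were filtered with filterByExpr (minimum count 10) and tested in edgeR 4.0.16 (R 4.3.3; TMM, robust quasi-likelihood fit, no covariate, Benjamini-Hochberg over 16248 genes, threshold 0.05), and also in DESeq2 1.42.0, which left 15 genes without an adjusted p, and limma 3.58.1. Intervals of 95% came from the quasi-likelihood F statistic. CPM use TMM library sizes, and levels per kb divide CPM by the exon length in the deposited table. For permutation tests 0.5 was added to CPM before the log2. The count fit was tested on simulated data. Same-strand exons of another gene cover 4.11% of Tapbp and 0.715% of Cd74 and of no other listed gene. Libraries are separate pools of animals, and no pair agreed within sampling noise.

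The genes, the other lists and the tests were chosen with earlier results of these data known. All 30 genes are accounted for. Of each further list, members past the threshold, or else the 2 with the smallest p, are named; H2-Ea is named in any case.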

Additional observations from a re-analysis of the deposited data

How the results depend on the processing

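Of the 30 genes, 0 passed the threshold under any of 15 alternatives (450 values: other normalizations, tests, filters, the combined alignments as a covariate, a block and each library left out). For 23 genes the sign changed under at least 1 alternative and for 7 it did not. Over all genes, edgeR called 0; DESeq2 called 7, edgeR with no filter on low counts 6, and with a block of neighbouring sample codes 71, while leaving out 1 library gave 0 to 2, with 2 without double mutant replicate 12; the cause was not tested. The class I median ran from -0.06 to 0.06 and the class II median from -0.14 to 0.04 when 1 library was left out. With the combined alignments (NTg replicates 7 and 9) as a covariate, H2-Aa had 0.60 in place of 0.23. That covariate sets NTg replicate 11 alone against the double mutants, and replicate 11 was the lowest library for H2-Aa (39.4 CPM). The groups share no replicate number in the labels, and the block pairs neighbouring codes of opposite genotype. By a chi-square per degree of freedom of the counts, 6 of 6 libraries were closest to their neighbouring code (6.1 to 10.7 against 11.1 to 33.6 for other pairs), a hint of pairing that comes from the data and not from the labels; with the block, the smallest adjusted edgeR p of the 30 genes was 0.403 (Calr). H2-DMb2 and Ciita, at 36 to 95 counts, are limited by depth.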

Other observations

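H2-Q1, a class I gene outside the 30 and chosen after its values were seen, was uneven within both genotypes. It had 166, 1 and 263 counts in NTg replicates 7, 9 and 11 and 14, 5 and 144 counts in double mutant replicates 8, 10 and 12, or 13.4, 0.0659 and 11.9 CPM against 1.04, 0.339 and 7.48 CPM. The libraries of each genotype thus held both high and low values, and the log2 fold change of -1.48 had an SE of 1.71. Another gene holds 15% of its 50-base stretches, most often H2-Q2 (9.05%).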
